A study of Macaca fascicularis with 6 samples.

Results

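Collagens of the fibrous and pericellular matrix were followed across 5 conditions of the cynomolgus monkey. The list held 10 genes, COL1A1, COL1A2, COL3A1, COL5A1, COL5A2, COL6A1, COL6A2, COL6A3, COL12A1 and COL14A1, chosen by name for their place in the matrix. Of these, 8 were among the 13950 genes of the matrix with 2 samples and the 14020 genes of the matrix with 4 samples. COL6A1 and COL6A2 were not analysed here, so type VI collagen was followed by COL6A3 alone.

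The study differentiated cynomolgus induced pluripotent stem cells (cyiPSC), a line that carries an EGFP reporter gene, into cartilage particles (cyiPS-Cart) and placed them in knee chondral defects of allogeneic monkeys labelled as wild type and 3 to 4 years old. After 4 months the tissue grown from the transplant (post-transplant cyiPS-Cart), fibrous tissue from defects left empty (cyFT) and articular cartilage that was intact (cyAC) were collected, minced and digested with Liberase, and live cells were sorted. TAS-Seq, a bead-based single-cell RNA-seq method, was run on 3 transcriptome libraries. The first held cyiPSC and pre-transplant cyiPS-Cart cells, the second post-transplant cells, and the last cyAC and cyFT cells. Each condition was 1 sample, all cyiPS-Cart came from 1 cell line, and the number of animals behind each sequenced tissue is not given in the labels. The cyiPSCs had been maintained on mouse embryonic fibroblast feeders. Condition and library therefore could not be told apart between libraries. With 1 sample a condition no test was made, and each interval covers counting error only.

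Type I collagen, a heterotrimer of the chains encoded by COL1A1 and COL1A2, forms the fibrils of bone, tendon and scar, whereas hyaline cartilage is built on type II collagen, encoded by COL2A1. Type III collagen (COL3A1) joins type I fibrils in compliant and healing tissue, and type V collagen (COL5A1 and COL5A2) starts those fibrils and limits their width. Type VI collagen makes the beaded filaments around the chondrocyte, and types XII and XIV (COL12A1 and COL14A1) sit on fibril surfaces.

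The 2-sample matrix held 2500 cyiPSCs and 3527 pre-transplant cells, with medians of 143075 and 59249 reads per cell. The 4-sample matrix held 320 cells per condition, a number to which the study had reduced each sample, with medians from 27499.5 in cyFT to 80336 in post-transplant cells. Of its 320 pre-transplant cells, 300 were also in the larger set, with identical counts. Between libraries, 2 cell numbers were shared by the first and second, 4 by the first and last and 0 by the second and last. Reads of the reporter (GFP-polyA) were found in every cyiPSC, pre- and post-transplant cell and in 0 of 320 cyAC and 0 of 320 cyFT cells. Of 12 chondrocyte markers, 11 were listed, and all 11 reached 50 CPM (counts scaled to the total, 10000 CPM being 1% of all reads) in the 3 cartilage conditions and also in cyFT. cyFT thus also held cells with the defining collagen of hyaline cartilage: COL2A1 reads were in 36.6% of its cells and COL1A1 reads in 63.4%. Fibroblast markers, 9 of 10 listed, summed to 4447 CPM in pre-transplant, 2868 in post-transplant, 1779 in cyAC and 2276 in cyFT cells. PI16 had no reads in the last 3. POSTN alone made up 2248 CPM of the pre-transplant sum but 38.0 CPM of the cyFT sum, and DPT 668 against 73.6. LUM and THY1 had the opposite order, cyFT holding 1297 CPM over 651 and 284 over 95.5. No order of fibroblast content was therefore read from the sums. Mural and muscle markers, 6 of 7 listed, summed to 477 CPM in pre-transplant, 74.0 in post-transplant, 125 in cyAC and 581 in cyFT cells, with CNN1 at 0 in post-transplant cells and cyFT, and their part in the collagen differences was not tested. Macrophage and immune markers, 8 of 10 listed, summed to 515 CPM in cyFT against 9.30 to 33.7 CPM in the other 3 conditions, and 16 cyFT cells held reads of at least 3 of them.

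A level here is the CPM of reads summed over the cells of a condition. A read in a single cell is not a uniform limit of detection, because the authors' background subtraction set low counts to 0 gene by gene and library by library. The lowest non-zero count of COL1A1 was 276 reads in cyiPSCs, 277 in pre-transplant cells, 497 in post-transplant cells, 76 in cyAC and 81 in cyFT. That of COL1A2 was 1 in the first library, 268 in post-transplant cells, 92 in cyAC and 105 in cyFT. A cell listed at 0 can thus hold a low level. At the median depth the COL1A1 minimum of the library corresponded to 4742 CPM in pre-transplant cells, 6187 in post-transplant cells, 2559 in cyAC and 2764 in cyFT. Both values of the last library used its minimum of 76 reads. COL3A1 started at 92 reads in the first library, 268 in the second and 1 in the last. COL5A2 started at 28, 27 and 7 reads, COL5A1 at 1, 2 and 1, and COL6A3, COL12A1 and COL14A1 at 1 read in all 3. COL2A1 started at 145, 354 and 211 reads, the last being 7673 CPM at the median depth of cyFT. Because COL1A2 reads were found in 98.7% of cyiPSCs, at a median of 72.0 CPM per cell, shares of type I and III positive cells are also given at 10000 CPM, or 1% of a cell's reads. That level lay above the COL1A1 minimum in all but 19 pre-transplant, 57 post-transplant, 1 cyAC and 1 cyFT cells of the 4-sample matrix. It was chosen after the data were seen.

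The level of the type I chain COL1A1 was 73.9 CPM in cyiPSCs, 7016 in pre-transplant cells, 10168 in post-transplant cells, 1196 in cyAC and 18192 in cyFT. The level of its partner COL1A2 was 116, 3861, 25852, 1962 and 18279 CPM in the same order. COL1A1 was highest in cyFT and COL1A2 highest in post-transplant cells, and cyAC was the lowest of the 4 cartilage and fibrous tissues for both. The level of COL3A1 was 61.3 CPM in cyiPSCs, 11792 in pre-transplant cells, 34538 in post-transplant cells, 5177 in cyAC and 10222 in cyFT. It was highest in post-transplant cells, followed by pre-transplant cells and cyFT, whose order turned by the mean of per-cell CPM (11453 against 12794) and after thinning to equal depth (11505 against 12292).

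The type V chain COL5A1 had levels of 23.6, 1036, 1633, 369 and 631 CPM in the order cyiPSC, pre-transplant, post-transplant, cyAC and cyFT. COL5A2 had 8.53, 3143, 2332, 337 and 1168 CPM. Both chains were higher in pre- and post-transplant cyiPS-Cart than in cyAC or cyFT. COL6A3, the type VI chain, had 5.28, 164, 314, 143 and 590.5 CPM and was highest in cyFT. COL12A1 had 11.2, 307, 246, 108 and 223 CPM, the narrowest range of the 8 genes over the 4 tissues. COL14A1 had 1.89, 58.7, 88.8, 726 and 1433 CPM. It was the only member higher in cyAC than in post-transplant cyiPS-Cart, and cyAC and cyFT, which were both above pre- and post-transplant cells, came from 1 library. COL2A1, the hyaline reference, had 17.8, 30156, 49488, 47409.9 and 20777 CPM. In the larger pre-transplant set of the 2-sample matrix the 8 members differed from the smaller set by 0.79- to 1.12-fold.

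**Figure D1:**
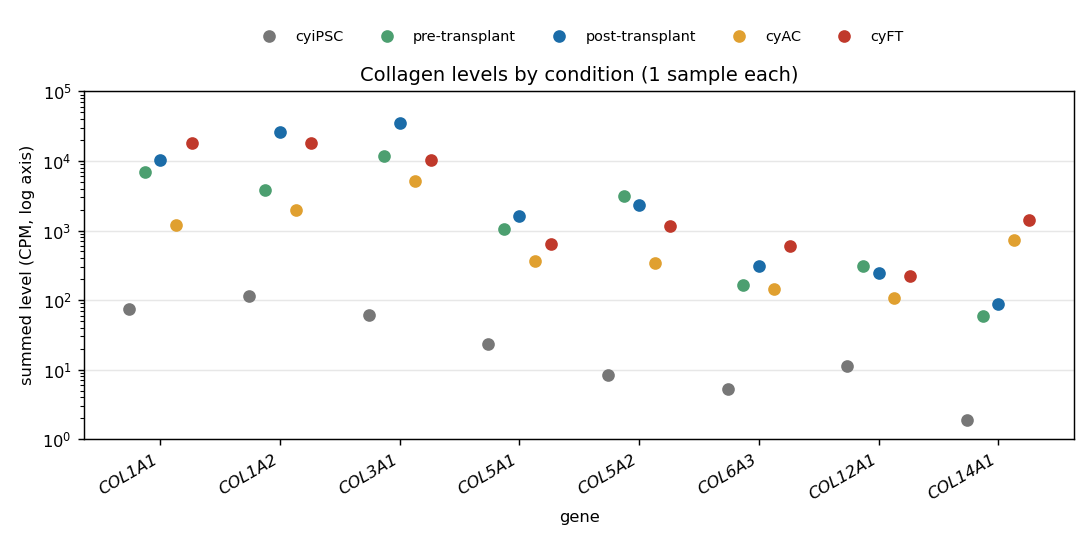
Levels of the 8 listed collagen genes, as CPM of summed reads on a log axis, with 1 point per condition; cyiPSC is from the 2-sample matrix and the others from the 4-sample matrix. COL1A1 was highest in cyFT at 18192 CPM, COL1A2 and COL3A1 were highest in post-transplant cells, and COL14A1 was higher in cyAC and cyFT than in pre- and post-transplant cells.

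From cyiPSC to pre-transplant cyiPS-Cart, differentiation in culture into cartilage, all 8 listed members were at least 2-fold higher. Of the 4684 genes that reached 50 CPM and reads in 25% of cells in either sample, 18.4% were at least 2-fold higher and 38.5% lower (56.8% in either direction), and 7 of the 8 members passed that filter, COL14A1 not. The log2 ratios ran from 4.03 for COL14A1 to 8.34 for COL5A2, with COL3A1 at 7.56 and COL1A1 at 6.60. The median over the members was 5.16, and over all genes tested it was -0.63. Of 28 listed fibrous matrix partners, 23 passed the filter and 22 were higher, led by FMOD, which encodes the fibril-binding proteoglycan fibromodulin, at 9.76. Of 17 other collagens listed, 9 passed and 8 were higher. Of 24 pericellular matrix partners listed, 16 passed and 13 were higher.

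Members with a minimum of 1 read were found in more cyiPSCs than members with higher minima. COL1A2, COL5A1, COL12A1, COL6A3 and COL14A1, with a minimum of 1 read, were in 2468, 1878, 1250, 823 and 338 of 2500 cells. COL1A1, COL3A1 and COL5A2, with minima of 276, 92 and 28 reads, were in 44, 37 and 42. With 1 minimum of 276 reads for both type I chains, COL1A2 was in 13 cyiPSCs and COL1A1 in 44. Reads of COL1A1, COL3A1 or COL5A2 were found in 79 of 2500 cyiPSCs (3.16%), and 17 cells held all 3 genes. Reads of the pluripotency genes NANOG or LIN28A were in 68.4% of those 79 cells and in 80.3% of the others. The 79 cells had a median of 220380 reads against 142101 in the others, and they included all 14 cyiPSCs marked as doublets. Only 14 of the 6027 cells of this matrix were marked, so doublets may have been missed, and how well the caller worked was not tested. The reporter level of the 79 cells was 1260 CPM against 1190 CPM in the others. The reporter was thus at a like level in these cells, and the part of the feeder cells and of doublets in these reads was not tested. With the 14 marked cells left out, all 8 log2 ratios from cyiPSC to pre-transplant cyiPS-Cart were larger, COL1A1 reaching 7.06. Without the 5 cells of each sample with the most member reads COL1A1 was at 7.24 and COL3A1 at 8.52, whereas by the mean of per-cell CPM they were at 5.88 and 6.18 and COL5A2 was at 7.50. With a pseudocount of 10 the members low in cyiPSCs had smaller ratios, 2.24 for COL14A1, 3.57 for COL6A3, 4.05 for COL12A1 and 7.38 for COL5A2.

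From pre- to post-transplant cyiPS-Cart, 4 months in the defect, 2 of 8 members were at least 2-fold higher and 0 lower. In the same comparison 8.16% of 3421 genes were at least 2-fold higher and 22.1% lower (30.3% in either direction). COL1A2 was 6.70-fold higher (95% counting interval 6.65 to 6.74; log2 2.74) and COL3A1 2.93-fold higher (2.92 to 2.94; log2 1.55). Just below the threshold was COL6A3 at 0.93, followed by COL5A1 at 0.66, COL14A1 at 0.59 and COL1A1 at 0.54. COL12A1 and COL5A2 had log2 ratios of -0.32 and -0.43. The members' median was 0.62 and that of all genes tested -0.39. COL1A1, with reads in under 25% of cells in both samples, did not pass the filter. The fibrous matrix partners moved in both directions, 5 higher and 6 lower of 23 that passed. DCN, the small proteoglycan decorin, had the largest log2 ratio at 5.02, and POSTN, the matricellular protein periostin, was at -2.66. Of the other collagens 3 were higher and 1 lower of 10 that passed, with the type XI chain COL11A2 at 1.47, and of the pericellular partners 4 were higher and 1 lower of 15, with the collagen-binding integrin chain ITGA10 at 1.62.

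In cyFT against cyAC, tissue filling an empty defect against intact cartilage of the same library, 5 of 8 members were at least 2-fold higher and 0 lower. Here 7.06% of 3270 genes were at least 2-fold higher and 3.73% lower (10.8% in either direction). COL1A1 was 15.2-fold higher (15.0 to 15.5; log2 3.93) and COL1A2 9.32-fold higher (9.19 to 9.44; log2 3.22). COL6A3 had a log2 ratio of 2.04, COL5A2 of 1.79 and COL12A1 of 1.04, just inside the threshold. COL3A1 and COL14A1, both at 0.98, lay just outside it, and COL5A1 was at 0.77. The members' median was 1.42 and that of all genes tested 0.11. The type I chains thus differed more than the fibril-surface collagens. COL2A1 had a log2 ratio of -1.19. Thinned to equal depth, all 8 members passed 2-fold, as they did by the mean of per-cell CPM. Without the 5 cells of each sample with the most member reads, COL12A1 was at 0.97, COL3A1 at 1.08, COL14A1 at 1.02 and COL1A1 at 4.98. Without the 16 cyFT and 3 cyAC cells with reads of at least 3 immune markers, 7 members passed, with COL5A1 at 0.93. Of the fibrous matrix partners, 7 were higher and 2 lower of 21 that passed, and the largest log2 ratios were 2.66 for MFAP5 and 2.32 for ELN, components of elastic fibres, and 1.71 for TNC, the matricellular protein tenascin-C. Of the other collagens 1 was higher, the basement membrane chain COL4A2 at 1.52, and 2 were lower, COL2A1 and the type IX chain COL9A1 at -1.07, of 8 that passed. Of 14 pericellular partners that passed, 2 were higher and 1 lower, with the laminin chain LAMB1 at 4.23 and the matrilin MATN3 at -2.04.

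Post-transplant cyiPS-Cart was then set beside cyAC and cyFT, with the library differing as well as the condition and the post-transplant sample shared with the comparison over pre-transplant cells. Against cyAC, 7 of 8 members were at least 2-fold higher, where 10.8% of 3235 genes were higher and 17.8% lower (28.5% in either direction). COL1A2 had the largest ratio, at 13.2-fold (log2 3.72), followed on the log2 scale by COL1A1 at 3.09, COL5A2 at 2.79, COL3A1 at 2.74, COL5A1 at 2.14, COL12A1 at 1.18 and COL6A3 at 1.13. COL14A1 alone was lower, by 8.18-fold (log2 -3.02). COL1A1 did not pass the filter. Thinned to equal depth, COL12A1 and COL6A3 fell short of 2-fold at 0.99 and 0.70. Without the 5 cells with the most member reads, COL1A1 was at 3.81 and COL1A2 at 4.37. The members' median was 2.44 and that of all genes tested -0.13. COL2A1 was close to equal in the same samples, with a log2 ratio of 0.06. Of the fibrous matrix partners 11 were higher and 3 lower of 23 that passed, with POSTN at 6.24 and the connective tissue growth factor gene CCN2 at -3.09. Other collagens numbered 2 higher and 1 lower of 10, and pericellular partners 4 higher and 0 lower of 15.

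Against cyFT, the members split. COL3A1 (1.76) and COL5A1 (1.37) were at least 2-fold higher in post-transplant cells on the log2 scale, and COL5A2 lay at the threshold, just below it, with a ratio interval of 1.96 to 2.04. COL14A1 was 16.1-fold lower (log2 -4.00). Among 3389 genes, 7.85% were higher and 21.4% lower (29.2% in either direction), the background for 2 members higher and 1 lower. COL6A3 was at -0.91, COL1A1 at -0.84, COL1A2 at 0.50 and COL12A1 at 0.14. The members' median was 0.32 and that of all genes tested -0.29. Of the fibrous matrix partners 5 were higher and 5 lower of 24 that passed, led by POSTN at 3.19 and the collagen cross-linking enzyme LOX at 2.95. Other collagens numbered 4 higher and 0 lower of 10, and pericellular partners 3 higher and 3 lower of 16. COL1A1 and COL6A3 passed 2-fold in the direction of cyFT when cells were weighted equally, at -1.21 and -1.31, or thinned to equal depth, at -1.15 and -1.30. Without the 5 cells of each sample with the most member reads, COL5A2 passed as well, at 1.05. Scaling by trimmed means (edgeR TMM) moved the members' log2 ratios by 0.34 here, which took COL1A1 to -0.50 and COL5A2 to 1.34. The same scaling moved them by -0.18 in cyFT over cyAC, by 0.22 in post- over pre-transplant, by 0.12 in post-transplant over cyAC and by a median of 0.65 in pre-transplant over cyiPSC. It took COL12A1 in cyFT over cyAC to 0.86 and COL6A3 in post- over pre-transplant to 1.16. Summed over the 8 members the level was 27378 CPM in pre-transplant cells, 10017 in cyAC, 50738 in cyFT and 75172 in post-transplant cells.

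The members' reads were spread over cells in different ways. COL1A1 reads were in 1.76% of cyiPSCs, 24.1% of pre-transplant cells, 16.9% of post-transplant cells (12.9 to 21.4%), 5.94% of cyAC cells (3.61 to 9.12%) and 63.4% of cyFT cells (57.9 to 68.7%). At 10000 CPM or more the shares were 20.9%, 15.3%, 4.69% and 59.1% in the last 4 conditions, and at 1 minimum of 497 reads they were 21.9%, 16.9%, 3.12% and 41.2%, lower in cyAC and cyFT than as deposited. In the shallower cyAC and cyFT cells 497 reads was a larger part of a cell's reads. Post-transplant cells had the smaller share and the higher level when set beside pre-transplant cells, so no order was read between these samples. Post-transplant COL1A1-positive cells had a median of 63591 CPM, against 24148 in pre-transplant, 19668 in cyAC and 34963 in cyFT positive cells. The 10% of cells with the most COL1A1 held 69.4% of the gene's reads in pre-transplant cells, 86.2% in post-transplant cells, 100% in cyAC, where fewer cells than that had reads, and 40.1% in cyFT. These medians and percentages rest on unlike COL1A1 minima, 277, 497, 76 and 81 reads in the same order, so no order was read from them. At 10000 CPM or more, COL1A1 lay in a smaller share of cells in all 3 cartilage samples than in cyFT.

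COL1A2 at 10000 CPM or more was in 14.1% of pre-transplant, 73.4% of post-transplant, 6.56% of cyAC and 61.2% of cyFT cells. COL3A1 at that level was in 51.2%, 99.4%, 14.4% and 50% of cells. Nearly every post-transplant cell was therefore high in COL3A1. COL14A1 reads were in 39.1% of pre-transplant, 55% of post-transplant, 89.4% of cyAC and 85% of cyFT cells, and after thinning in 25.4%, 31.2%, 81.8% and 72.9%. COL5A2 was in 98.8%, 97.8%, 42.5% and 63.1%, the shares in the last library resting on a lower minimum count. Reads of at least 7 of the 8 members were in 116 pre-transplant, 141 post-transplant, 17 cyAC and 184 cyFT cells of 320 each. These counts carry the unlike depth and minimum counts of the samples and were not repeated at equal depth.

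**Figure D2:**
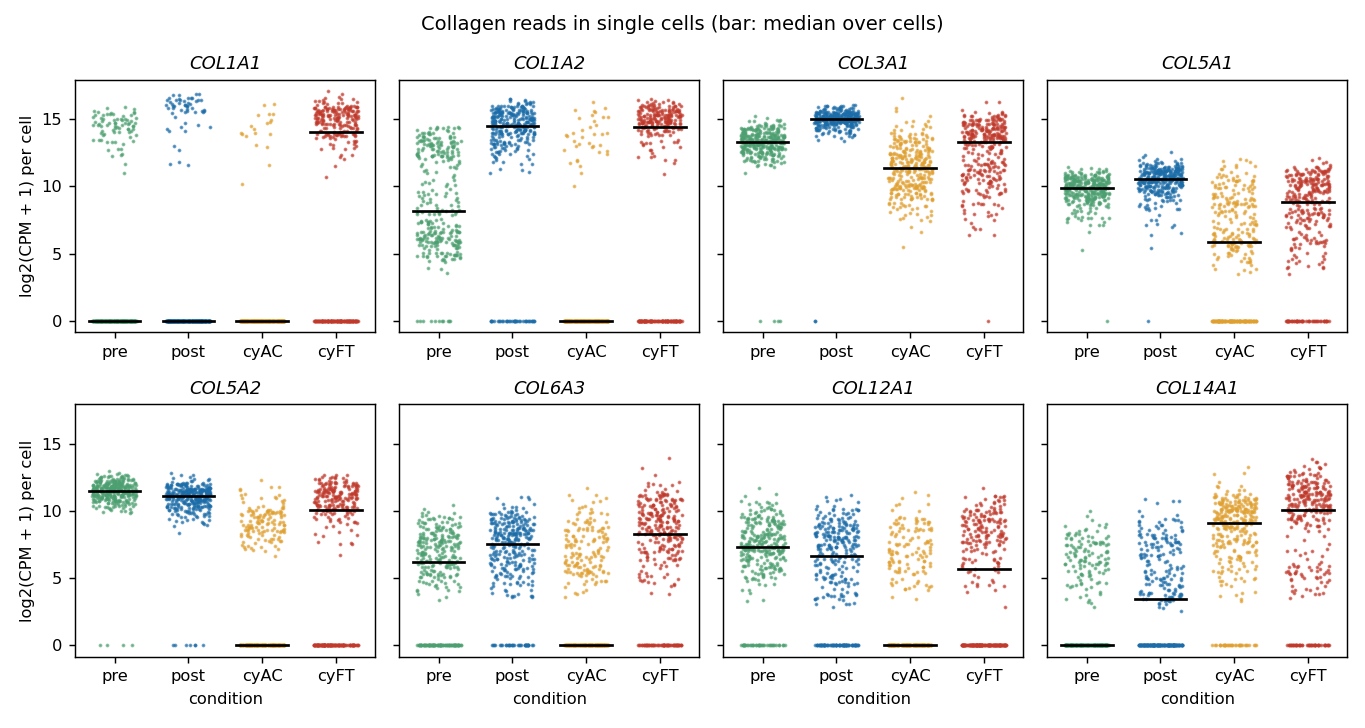
Level of each collagen in single cells, as log2(CPM + 1), with 1 point per cell, 320 cells per condition and a bar at the median. COL3A1 lay in a narrow high band in post-transplant cells, COL1A1 was at 0 in most cells of all but cyFT, and COL14A1 had its highest medians in cyAC and cyFT.

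Both chains of type I collagen were not found in the same cells to the same extent. At 10000 CPM or more, post-transplant cells fell into 48 with both chains, 187 with COL1A2 only (58.4%; 52.8 to 63.9%), 1 with COL1A1 only and 84 with neither. cyFT cells fell into 186 with both, 10 with COL1A2 only and 3 with COL1A1 only. Cells with COL1A2 only were thus the largest class after transplantation and rare in cyFT. Pre-transplant cells fell into 34 with both, 33 with COL1A1 only and 11 with COL1A2 only, and cyAC cells into 14, 1 and 7. With 1 minimum of 497 reads for both genes in all samples, which is the highest minimum in the 4-sample matrix, COL1A2-only cells were 65% in post-transplant and 5.31% in cyFT cells. A fixed count is a higher level in CPM in the shallower cyFT cells.

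The ratio of COL1A1 to COL1A2 reads was 0.638 in cyiPSCs, 1.82 in pre-transplant (1.80 to 1.83), 0.393 in post-transplant (0.392 to 0.395), 0.609 in cyAC and 0.995 in cyFT. Such ratios depend on the transcripts and are compared between conditions only. The sums also lack counts set to 0, and the COL1A1 minimum was 497 reads in post-transplant and 76 in cyAC cells. No order of the ratios with COL1A1 was therefore read over all cells. Among cells with reads of both genes the ratio was 2.81 in 77 pre-transplant, 1.17 in 53 post-transplant, 0.765 in 19 cyAC and 1.01 in 203 cyFT cells. Because these cells were selected for passing the COL1A1 minimum, 497 reads in post-transplant cells and 81 in cyFT, they were 53 of 283 post-transplant and 203 of 213 cyFT cells with COL1A2 reads, and no order between conditions was read from them. The ratio of COL1A1 to COL3A1 was 0.595 in pre-transplant, 0.294 in post-transplant, 0.231 in cyAC and 1.78 in cyFT. Among cells with reads of both it was 1.55, 2.08, 0.979 and 1.93 in the same order, with the same selection on COL1A1 and no order read. The ratio of COL5A1 to COL5A2 was 0.330, 0.700, 1.09 and 0.540. The ratio of COL14A1 to COL12A1 was 0.191, 0.361, 6.74 and 6.41. Among cells with reads of both it was 0.325, 0.420, 3.82 and 4.90. The ratio of the fibril-surface collagens was thus higher in cyAC and cyFT, which shared a library, than in pre- or post-transplant cyiPS-Cart.

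**Figure D3:**
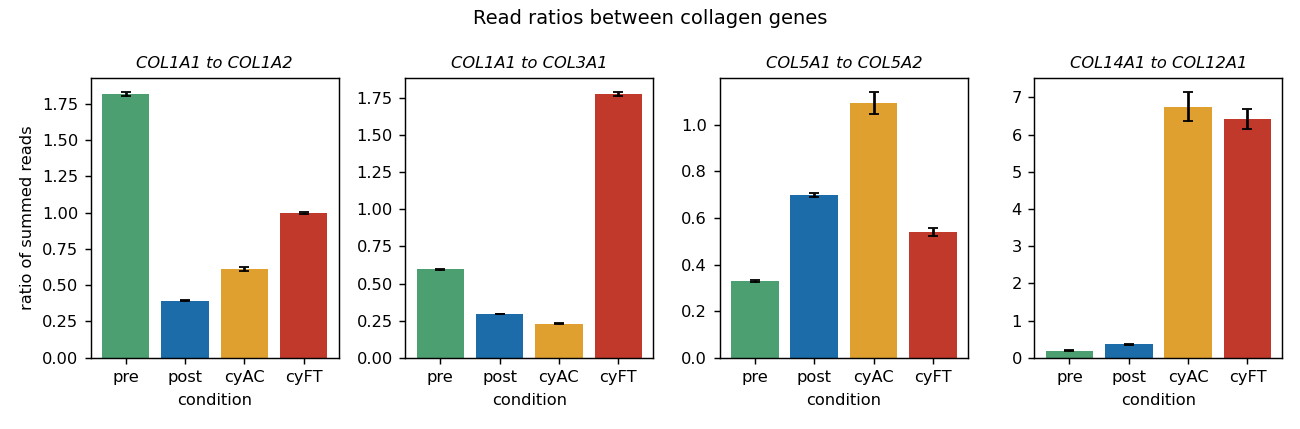
Ratios of summed reads between collagen genes in the 4-sample matrix, 1 bar per condition, with exact conditional 95% intervals that cover counting error only. Over all cells COL1A1 to COL1A2 was 0.393 in post-transplant cells, and COL14A1 to COL12A1 was above 6 in cyAC and cyFT. Counts set to 0 under unlike minima enter the ratios with COL1A1, so no order was read from them.

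**Figure D4:**
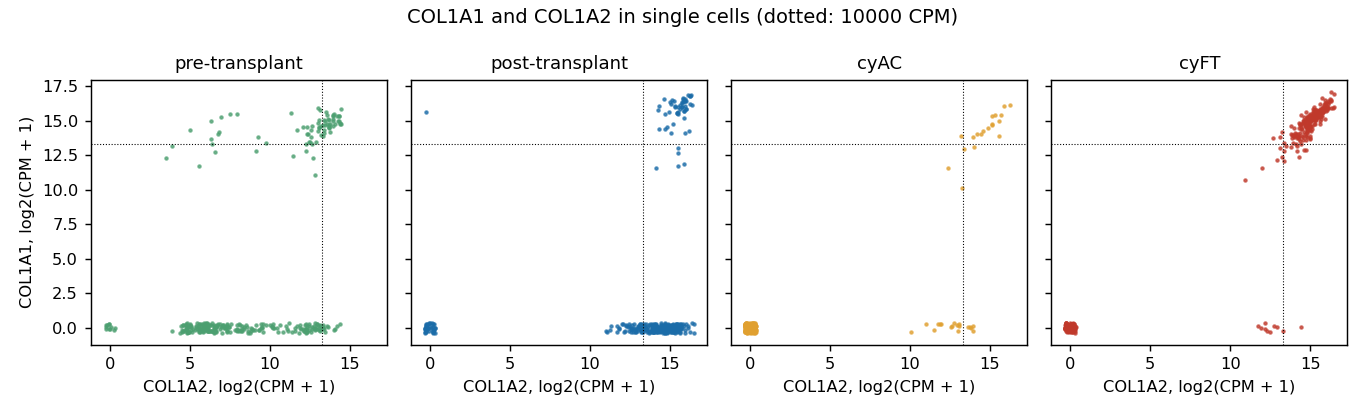
COL1A1 against COL1A2 in single cells, as log2(CPM + 1), 320 cells per panel, with zeros spread for visibility and dotted lines at 10000 CPM. Most cyFT cells lay along a diagonal or at the origin, and 187 post-transplant cells lay at or beyond 10000 CPM of COL1A2 and under it for COL1A1.

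In cyFT the other members were correlated with COL1A1 over all cells, and less so among the cells that held both genes. Pearson's r of log2(CPM + 1) between COL1A1 and COL1A2 was 0.95 over 320 cells, and between COL1A1 and COL3A1 0.83, COL5A2 0.81, COL14A1 0.74, COL5A1 0.68, COL12A1 0.54 and COL6A3 0.30. COL6A3 was the member least correlated with COL1A1. Among cells with reads of both genes, r with COL1A1 was 0.87 for COL1A2 (203 cells) and 0.52 for COL3A1 (203 cells), but 0.28 for COL5A2 (186), 0.25 for COL5A1 (196), 0.25 for COL12A1 (150), 0.14 for COL14A1 (198) and -0.0051 for COL6A3 (172). For members other than COL1A2 and COL3A1, the values with COL1A1 over all cells thus largely set cells with COL1A1 reads apart from cells without. Other pairs did not all fall, COL3A1 and COL5A1 going from 0.69 to 0.73 and COL3A1 and COL6A3 from 0.37 to 0.49. COL1A1 and COL2A1 had r = -0.57. The cells of a condition share 1 library, and the values carry depth and the subtraction of background. After thinning to equal depth the r of COL1A1 with COL1A2 was 0.95 and with COL3A1 0.79. Within the 203 cyFT cells with COL1A1 reads, COL3A1 was at 19102 CPM, against 1550.0 in the 117 without. COL5A2 was at 2297 against 65.4 CPM, COL14A1 at 2667 against 227, and COL2A1 at 4605 against 36569.5. The cells with COL1A1 reads, 33 of which also held COL2A1 reads, had a median of 23049 reads, and the cells without, 84 of which held COL2A1 reads, had 43272. The COL2A1 minimum of 211 reads was a larger part of the reads in the shallower cells. This split and r = -0.57 carry that limit, which thinning does not remove.

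In post-transplant cells the correlations depended on the measure. COL1A1 and COL1A2 had r = 0.23, COL1A1 and COL3A1 -0.08, and COL1A2 and COL3A1 0.18. By rank, Spearman's rho for the same pairs was 0.47, -0.27 and -0.10, so COL1A1 and COL1A2 were more closely related by rank and COL1A2 and COL3A1 changed sign. The 54 cells with COL1A1 reads had 48741 CPM of COL1A2 against 20957 in the 266 without, and 27719 against 35997 CPM of COL3A1. COL2A1 was 26682 CPM in the former and 54365 in the latter. COL14A1 had the highest Pearson's r of the members with COL1A1 in these cells, 0.32, and COL1A2 the highest rho. In the larger pre-transplant set of 3527 cells the r was 0.49 for COL1A1 and COL1A2 (rho 0.48, close to that in post-transplant cells), 0.37 for COL1A1 and COL6A3, 0.34 for COL1A1 and COL12A1 and -0.59 for COL1A1 and COL2A1. In cyAC, 19 cells had COL1A1 reads and all held COL1A2, with r = 0.75 between the chains. Those 19 cells had 22490.5 CPM of COL3A1 against 4182 in the other cyAC cells, and 5551 against 49815 CPM of COL2A1.

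**Figure D5:**
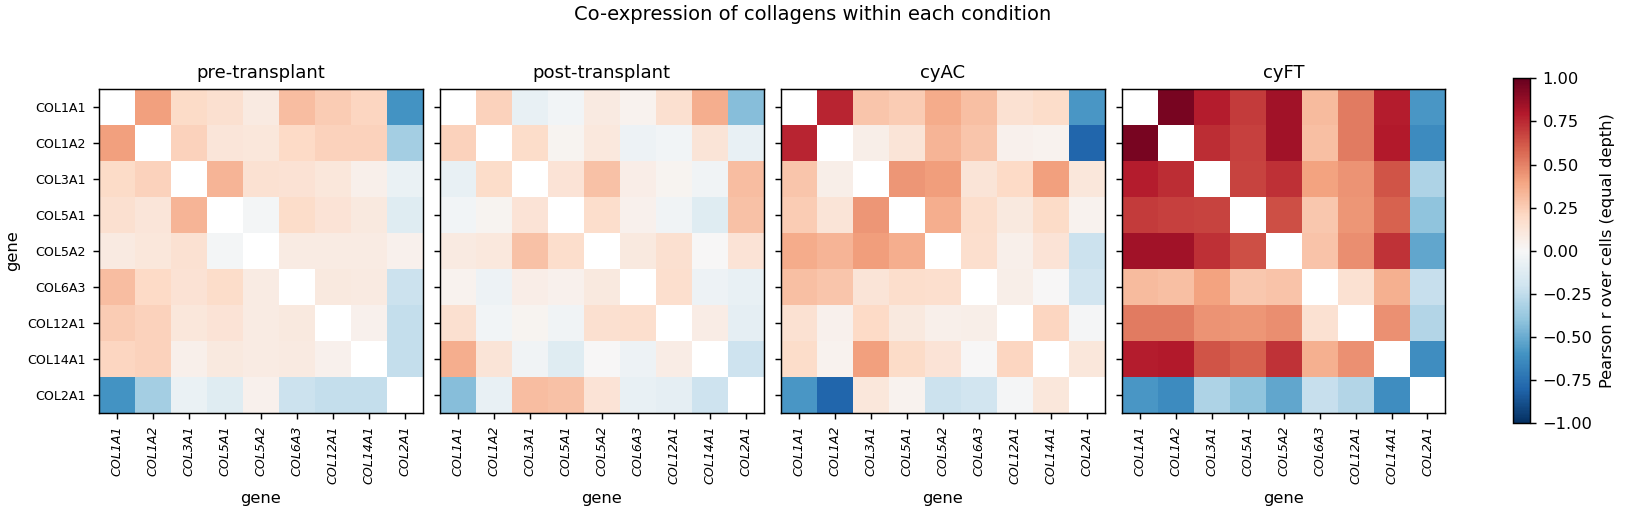
Pearson's r of log2(CPM + 1) over cells thinned to equal depth, for each pair of the 8 members and COL2A1 in the 4-sample matrix, 1 panel per condition, with blue for negative and red for positive values. cyFT had r between 0.15 and 0.95 among the members, and COL1A1 with COL1A2 was at 0.23 in post-transplant cells. Cells at 0 are included.

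The genes most like COL1A1 over cells by Pearson's r, among those with reads in at least 10% of cells, differed between conditions. In cyFT they were COL1A2, TNC (0.87), COL3A1, COL5A2 and COL14A1. In pre-transplant cells they were ECM1, an extracellular matrix glycoprotein (0.66), COL1A2, the hyaluronan receptor CD44 (0.46), FBLN2 (0.44) and COL8A1 (0.43). In post-transplant cells they were BTN3A2 (0.42), B2M, the light chain of MHC class I (0.40), LAMB1 (0.35), SULF1 (0.34) and MXRA5 (0.33), and no member was among them. COL3A1 was nearest to HTRA1 (0.54) and PRELP (0.51) in post-transplant cells and to FMOD (0.52) in cyAC. COL12A1 was nearest to POSTN in post-transplant cells (0.32), to COL1A1 in pre-transplant (0.34) and cyFT cells (0.54) and to RERG in cyAC (0.25). COL6A3, used in place of COL6A1, had its highest r with FNDC1 in cyFT (0.44) and with PAM, a peptide-processing enzyme, in post-transplant cells (0.26).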

How the data were processed

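TAS-Seq reads were processed by the authors' service provider with cutadapt 3.4, Bowtie2 2.4.2 and R 3.6.3, per the labels. The methods name Ensembl cynomolgus transcripts as the reference, while the labels list a human build (GRCh38). The deposited values are raw counts per gene and cell, taken as reads since no counting of molecular identifiers is described, after the authors' subtraction of background, which sets low counts to 0. Hashtags in the cell names gave the condition, following the authors' code. The members and lists were chosen with earlier results of these data known. RefSeq symbols matched 94.9% of the genes, and all 10 members.

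Counts were summed per condition and divided by total reads. Ratios used log2(CPM + 1), and a ratio of at least 2-fold was called. Genes outside the members were named by rank in lists or by correlation. No test was possible with 1 sample per condition. Intervals are exact (95%) and cover counting error only. Cells were thinned to 30967 reads (2-sample matrix) or 12191 reads (4-sample matrix), which left out 60 cyiPSC and 353 pre-transplant cells of the former and 1 pre-transplant, 0 post-transplant, 12 cyAC and 32 cyFT cells of the latter. Scrublet in scanpy 1.11.5 marked 14 cells of the 2-sample matrix (0.232%, so few that doublets may have been missed) and 26 pre-transplant, 8 post-transplant, 2 cyAC and 2 cyFT cells of the 4-sample matrix. They were kept. Scaling factors came from edgeR 4.0.16. The ratio, thinning and correlation steps were tested on simulated data that had no subtraction of background, so its effect on them was not tested.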

Additional observations from a re-analysis of the deposited data

How the results depend on the processing

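No paired analysis was possible because each condition was 1 sample and the result comes from no test. No called member turned its direction under the alternatives run. Without a filter on low values the genes past 2-fold rose from 2661 to 5945 for pre-transplant over cyiPSC, from 1035 to 3033 for post- over pre-transplant, from 353 to 2348 for cyFT over cyAC, from 923 to 3184 for post-transplant over cyAC and from 991 to 3500 for post-transplant over cyFT. The genes tested rose too. In the same order they went from 4684 to 13920, 3421 to 12269, 3270 to 12110, 3235 to 12014 and 3389 to 12045. Members past 2-fold in cyFT over cyAC numbered 8 against 5 by the mean of per-cell CPM and when thinned. In post-transplant over cyFT they numbered 3, against 5 by the mean of per-cell CPM, with a stricter cell filter or when thinned, and 6 without the 5 cells with most member reads. All other counts of members stayed within 1.5 times. COL12A1, not called in post-transplant over cyFT, was at 0.14 and turned to -0.33 by the mean of per-cell CPM. Counts set to 0 by the authors limit the shares: with 1 minimum for all samples COL5A2 was found in 16.6% of cyAC and 44.7% of cyFT cells, against 42.5% and 63.1% as deposited. The cause of these moves was not tested.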
